A study of Mus musculus with 24 samples.

Results

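The genes examined here encode the subunits of the proteasome and the ubiquitin-conjugating (E2) enzymes, measured in 6 organs of Nur77-/- mice against wild-type mice. They were chosen by symbol: a probe belonged to the set if its gene symbol in the platform annotation was Psma, Psmb, Psmc, Psmd, Psme, Psmf or Psmg followed directly by a digit, or began with Ube2. This gave 62 genes on 84 probes, out of 9834 genes with a single symbol and 20205 probes in all. Classes followed the letters of the symbols, so assembly chaperones such as Psmd5 and Psmd10 count with the regulatory particle. The 62 genes comprised 17 subunits of the core particle, 15 genes of the regulatory particle, 7 activators, inhibitors and assembly factors, and 21 E2 enzymes. The remaining pair, Psmc3ip and Psme3ip1, carry the letters of the family without being subunits and were kept apart. Values of the 14 genes with several probes were averaged per array.

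The proteasome is the protease that degrades most short-lived and damaged proteins of the cell after they have been tagged with ubiquitin. An E1 enzyme activates ubiquitin, an E2 enzyme carries it, and an E3 ligase guides it to the substrate. The core particle is a barrel of alpha and beta subunits whose inner beta subunits cut the chain. The regulatory particle, with its ring of ATPases (Psmc genes) and its non-ATPase subunits (Psmd genes), recognises the ubiquitin chain, unfolds the protein and feeds it into the barrel. In immune cells and after interferon, the catalytic subunits Psmb5, Psmb6 and Psmb7 are replaced by Psmb8, Psmb9 and Psmb10, and the activator made of Psme1 and Psme2 caps the barrel. In skeletal muscle this system is the main route by which contractile protein is removed during wasting.

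RNA of lung, spleen, testis, skeletal muscle (skeleton muscle in the labels), heart and brown adipose tissue was compared on 2-colour arrays, with 1 mutant and 1 wild-type sample per array. The mutant samples came from 7 pooled Nur77-/- mice, which lack the orphan nuclear receptor encoded by Nr4a1. The reference was a pool of Nur77+/+ mice, 7 by the series' design text and 6 by the labelling protocol, a difference that could not be settled. Each organ had 4 arrays, 24 in all. On arrays 1 and 2 of each organ the mutant pool was in Cy5 and the wild-type pool in Cy3, and on arrays 3 and 4 the dyes were exchanged. The sources used here do not give strain, sex, age or how the allele was made. The wild-type channel of heart array 2 is labelled as skeletal muscle, and heart ratios without this array are given after the gene classes. Because both sides are pools, each organ holds 1 comparison hybridised 4 times, and a p-value below measures the error between hybridisations and not the spread between animals.

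All ratios are log2 of mutant over wild type, so values above 0 stand for a higher level in the mutant pool and values below 0 for a lower one. This direction is likely but is not stated with the values. On the 22 arrays that measured Nr4a1 it was below 0 on 21, with values from -2.54 to 0.08, but where its probe lies within the gene is not known, so this does not check the deletion. The arrays held between 13396 and 19455 values. The median over all rows lay between -0.32 and 0.34 on every array outside skeletal muscle. In skeletal muscle it was -0.46 and -0.81 where the mutant pool carried Cy5, against 0.01 and 0.69 where it carried Cy3, so the 4 arrays of this organ differed in their medians. No pair of arrays was identical.

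A gene was tested in an organ if at least 3 of the 4 arrays measured it and both dye orientations were present. By this rule 48 of the 62 genes were tested in lung, 46 in spleen, 50 in testis, 49 in skeletal muscle, 54 in heart and 59 in brown adipose tissue, and 32 in every organ. Among them 19 had a value on all 24 arrays. The median spread of a gene over the arrays of an organ (SD) was 1.21 in skeletal muscle, 0.97 in spleen, 0.70 in lung, 0.50 in testis, 0.44 in brown adipose tissue and 0.42 in heart.

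**Figure D1:**
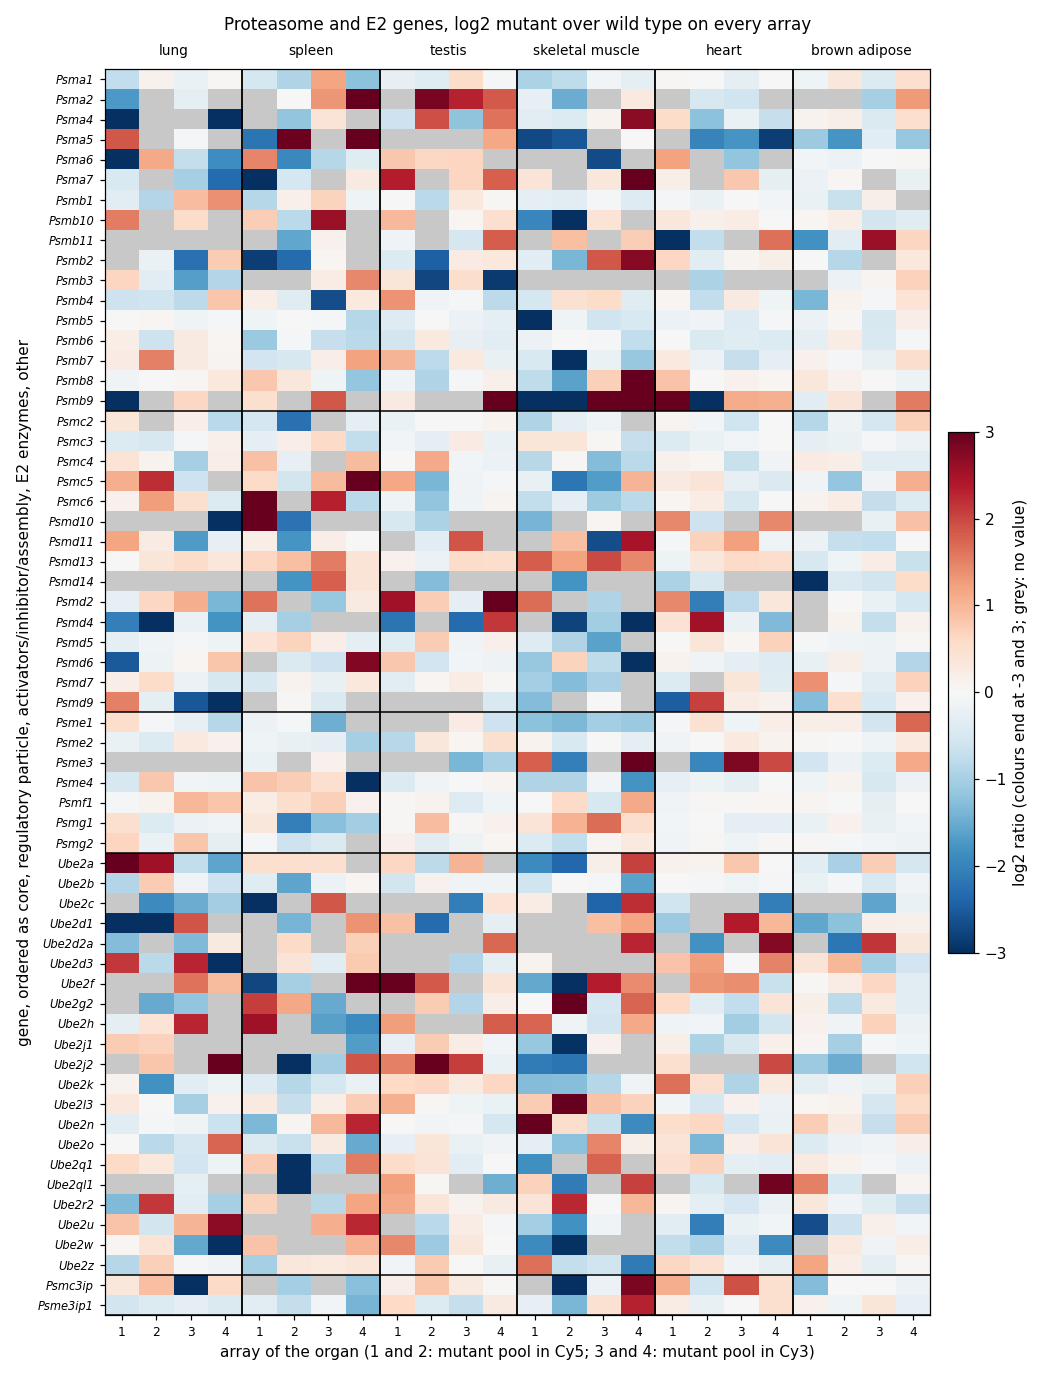
Log2 ratio of mutant over wild type of each of the 62 genes (rows) on each of the 24 arrays (columns, grouped by organ), with colours ending at -3 and 3 and grey for no value. Psmd13 is above 0 on all 4 skeletal muscle arrays, Psme1 is below 0 on all 4, and Psmb9 turns from below 0 to above 0 in skeletal muscle when the dyes are exchanged.

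Genes of the set passed the test in 1 organ only, skeletal muscle. The test pools the spread of all organs, and the median SD of the set was 1.21 in skeletal muscle and 0.42 in heart. For genes noisier in skeletal muscle than elsewhere the standard error is thus too small there, and too large in the quieter organs. The counts per organ therefore do not rank the organs by their response. In skeletal muscle Psmd13 and Ube2l3 rose, and Psme1 and Psmd5 fell (limma, Benjamini-Hochberg adjusted p under 0.05). These were 4 of 49 tested genes, or 8.16%, against 5.58% of all 11974 rows tested in this organ. Of all rows 402 rose (3.36%) and 266 fell (2.22%). With every array centred on its own median, Psmd13 and Ube2l3 still passed and no gene of the set fell, against 4.61% of all rows (447 that rose, 3.73%, and 105 that fell, 0.877%). With arrays weighted by their precision 1 of the 49 passed, Psmd13, against 1.64% of all rows. At an unadjusted p under 0.05 the count in skeletal muscle was 17 of 49 (6 above 0, 11 below), or 34.7%, against 20.2% of all rows.

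In the other organs no gene of the set passed. The percentage of all rows that passed was 0.0809 in lung, 1.53 in spleen and 0 in testis, heart and brown adipose tissue. At an unadjusted p under 0.05 there were 4 genes of the set in lung (8.33%, against 6.62% of all rows), 8 in spleen (17.4%, against 15.4%), 4 in testis (8%, against 3.62%), 1 in heart (1.85%, against 2.05%) and 0 in brown adipose tissue (against 0.67%). With array weights the count was again 0 in these 5 organs after adjustment, against 0.105% of all rows for lung, 0.276% for spleen, 0.0442% for testis, 0.137% for heart and 0.0394% for brown adipose tissue. All 4 testis genes lay above 0: Psma2, Psmd2, Ube2f and Ube2j2.

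Psmd13 encodes a non-ATPase subunit of the lid of the regulatory particle. In skeletal muscle its log2 ratio was 1.81 and 1.21 on the 2 arrays where the mutant pool carried Cy5, and 1.98 and 1.45 on the 2 where it carried Cy3. All 4 arrays lay above every Psmd13 value of lung, testis, heart and brown adipose tissue, and the dye orientations overlapped. The fitted ratio was 1.61 ± 0.24 (SE), a level 3.06-fold higher in the mutant pool (limma, adjusted p = 0.000332, and 0.00474 with array weights). Leaving out each skeletal muscle array in turn gave ratios from 1.49 to 1.72, all past the test (adjusted p from 0.000637 to 0.00392). With arrays both centred and scaled to 1 spread the ratio was 1.03 and did not pass (adjusted p = 0.142), where 0.418% of all rows passed. Nor did it pass when skeletal muscle was fitted on its own 4 arrays (adjusted p = 0.59). In that setting 0 of the 11974 rows passed, so it cannot set Psmd13 apart from other genes.

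In spleen Psmd13 stood at 0.62, 0.91, 1.53 and 0.40 in array order, again above 0 on every array. The fitted ratio there was 0.86 ± 0.24 (limma, adjusted p = 0.0688, and 0.549 with array weights), which did not pass. It was 0.31 ± 0.24 in lung, 0.26 ± 0.24 in testis, 0.32 ± 0.24 in heart and -0.26 ± 0.24 in brown adipose tissue. Each of these 4 organs had at least 1 array on the other side of 0. Over all 24 arrays Psmd13 was above 0 on 18.

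Psmd13 was also the 1 gene of the set whose ratio differed between organs. Limma's F test over the 6 organs gave an adjusted p of 0.00838, and 0.0213 with array weights. This was 1 of 32 genes, or 3.12%, against 2.24% of the 7553 rows tested in every organ (1.59% with array weights). The call was lost with centred arrays and when the arrays of replicate number 1, 2 or 3 were left out of every organ. At an unadjusted p under 0.05 the F test took 7 of the 32 genes, against 13.3% of all rows: Psmd13, Psmc6, Psmd5, Psmd7, Psmg1, Ube2k and Ube2l3.

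**Figure D2:**
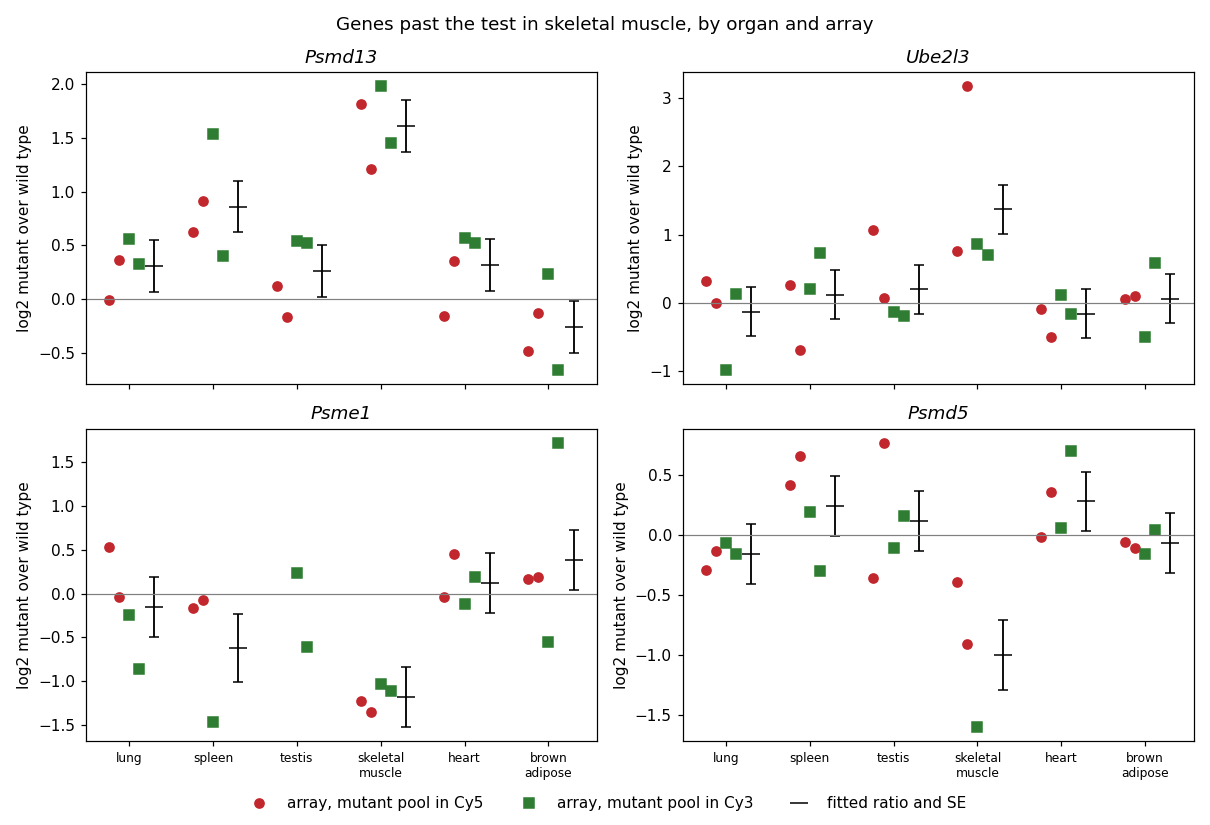
Log2 ratio of mutant over wild type of the 4 genes past the test in skeletal muscle, on every array of each organ (red circles: mutant pool in Cy5, green squares: mutant pool in Cy3), with the fitted ratio and its standard error as a black bar. Psmd13 runs from 1.21 to 1.98 in skeletal muscle, Psme1 from -1.35 to -1.03, and the Ube2l3 value of 3.18 on array 2 stands apart from the other 3 arrays.

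The sequences just before the start sites of the 4 genes are shown because they were searched for elements bound by Nur77 and by known regulators of proteasome genes. Nur77 binds as a monomer to the NBRE, AAAGGTCA, which contains the nuclear receptor core motif AGGTCA. Each line is the 250 bases before the annotated start, from RefSeq on GRCm38.p6, written 5′ to 3′ on the gene's strand. Capitals mark a match to a searched motif on either strand.
Psmd13, chr7:140882144-140882393, plus strand: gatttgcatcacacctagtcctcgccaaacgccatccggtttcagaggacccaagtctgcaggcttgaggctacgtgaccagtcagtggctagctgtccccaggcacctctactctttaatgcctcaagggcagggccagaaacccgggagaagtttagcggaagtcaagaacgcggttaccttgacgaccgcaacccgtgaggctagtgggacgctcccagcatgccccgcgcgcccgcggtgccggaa
Ube2l3, chr16:17201493-17201742, minus strand: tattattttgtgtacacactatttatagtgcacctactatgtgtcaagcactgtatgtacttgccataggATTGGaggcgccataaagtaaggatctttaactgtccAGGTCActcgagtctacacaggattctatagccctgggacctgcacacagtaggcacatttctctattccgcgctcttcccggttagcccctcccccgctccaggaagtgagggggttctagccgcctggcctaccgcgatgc
Psme1, chr14:55578244-55578493, plus strand: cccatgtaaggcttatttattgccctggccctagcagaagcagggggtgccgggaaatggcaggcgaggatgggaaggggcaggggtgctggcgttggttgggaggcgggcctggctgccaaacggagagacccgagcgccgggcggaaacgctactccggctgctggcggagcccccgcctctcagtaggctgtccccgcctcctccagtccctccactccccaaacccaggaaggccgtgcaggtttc
Psmd5, chr2:34870963-34871212, minus strand: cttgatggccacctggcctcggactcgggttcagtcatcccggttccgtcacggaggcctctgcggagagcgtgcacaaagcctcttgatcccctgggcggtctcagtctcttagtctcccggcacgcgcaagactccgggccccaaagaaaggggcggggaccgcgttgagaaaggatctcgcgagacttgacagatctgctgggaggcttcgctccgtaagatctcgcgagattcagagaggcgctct
The letters AAAGGTCA occurred in none of the 4 windows. The Ube2l3 window held the core motif AGGTCA and, on the opposite strand, the CCAAT box, which reads ATTGG here. The other windows held none of the motifs searched. The GC content was 60.4% for Psmd13, 50.8% for Ube2l3, 66.8% for Psme1 and 62% for Psmd5.

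Such windows were found for 52 of the 62 genes. The NBRE was in 0 of the 52 and in 419 of 27025 windows of all genes (1.55%). The core motif AGGTCA, which every NBRE also contains, was in 15 of the 52 (28.8%) and in 15.8% of all windows. By class it was in 3 of 14 core genes, 5 of 13 genes of the regulatory particle, 0 of 6 activators and assembly factors and 6 of 17 E2 genes. Psmc2, Psmc4, Psmc5, Psmd2 and Psmd6 were those of the regulatory particle. The antioxidant response element core TGACNNNGC, through which Nfe2l1 and Nfe2l2 drive proteasome genes, was in 5 of 52 (9.62%, against 11.5%): Psmb5, Psmb6, Psmc6, Psmd9 and Ube2j1. The CCAAT box was in 19 of 52 (36.5%, against 37.5%). The 52 windows had a mean GC content of 61.1%, against 53.2% for all genes. A match is a description of letters and says nothing on binding.

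The core particle showed no gene past the test in any organ. In skeletal muscle its median was -0.29 over 14 tested genes, against -0.16 over all rows. The median was -0.87 in the Cy5 orientation of the mutant pool and 0.19 in the Cy3 orientation, where all rows had -0.58 and 0.33, so the core medians moved with the dyes as the whole array did. Of the 14, 6 were below 0 in both orientations (42.9%, against 27.8% of all rows). In both orientations 1 was above 0 (7.14%, against 19.1%), and 7 changed sign. In the other organs the core median was -0.20 in lung, -0.25 in spleen, 0.07 in testis, -0.11 in heart and 0.00 in brown adipose tissue.

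None of the 3 catalytic subunits of the standard proteasome passed in skeletal muscle, and the ratios of Psmb5 and Psmb7 each held 1 extreme array. Psmb5, the chymotrypsin-like subunit, stood at -4.78, -0.14, -0.59 and -0.46. Its ratio was -1.49 ± 0.47 (limma, adjusted p = 0.0688), and array 1 carried most of it. Psmb7, the trypsin-like subunit, stood at -0.46, -4.50, -0.21 and -1.13, with a ratio of -1.57 ± 0.50 (adjusted p = 0.0691). Here array 2 was the extreme one, and all 8 values of the pair lay below 0. Under 20 alternatives Psmb5 passed in 3, with ratios from -2.69 to -0.35, and Psmb7 in 2, with ratios from -2.07 to -0.34. Psmb6, the caspase-like subunit, stood at -0.18, -0.02, -0.04 and -0.73, a ratio of -0.24 ± 0.24.

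No catalytic subunit passed in the other organs. Psmb5 ranged from -0.25 in spleen to -0.03 in lung (SE 0.47 each) and was below 0 in all 6 organs. Psmb6 was at -0.67 ± 0.24 in spleen, with -1.12, -0.04, -0.70 and -0.80 on the arrays (limma, adjusted p = 0.173), and between -0.31 and -0.01 in lung, testis, heart and brown adipose tissue. Its ratios, too, were below 0 in all 6 organs, on 18 of 24 arrays. Over the 6 organ means neither gene passed (limma, adjusted p = 0.702 for each), at -0.38 ± 0.20 for Psmb5 and -0.26 ± 0.12 for Psmb6. Psmb7 was at 0.53 ± 0.50 in lung, where every array was above 0, and within 0.20 of 0 in spleen, testis, heart and brown adipose tissue.

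The immunoproteasome subunits followed the dye in skeletal muscle. Psmb9 stood at -5.59 and -3.90 in the Cy5 orientation and at 3.75 and 3.03 in the Cy3 orientation, which fitted to -0.67 ± 1.23. Psmb8 stood at -0.77, -1.60, 0.71 and 3.19, with a ratio of 0.39 ± 0.48. Psmb10 stood at -1.95, -3.47 and 0.41 on the 3 arrays that measured it, with a ratio of -1.59 ± 0.61 (limma, adjusted p = 0.152). All 3 genes were thus below 0 on both Cy5 arrays and above 0 on every Cy3 array with a value, and no direction between the pools can be read for them.

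In spleen, the immune organ of the series, Psmb8 was at 0.80, 0.34, -0.14 and -1.16, a ratio of -0.04 ± 0.48. Psmb10 was at 0.92 ± 0.61 there and Psmb9 had only 2 values. In heart Psmb8 was at 0.26 ± 0.48 and Psmb10 at 0.17 ± 0.52, while Psmb9 spread from -4.39 to 4.50. In lung Psmb8 stayed between -0.11 and 0.31 on all arrays. In testis Psmb8 was at -0.24 ± 0.48 and Psmb10 at 0.42 ± 0.61. In brown adipose tissue the ratios were 0.08 ± 0.48 for Psmb8, -0.16 ± 0.52 for Psmb10 and 1.19 ± 1.44 for Psmb9. No immunoproteasome subunit passed in an organ. Of 11 genes of an interferon response list tested in skeletal muscle, Psmb8 and Psmb9 among them, none passed. The list median there was -0.05, with array medians of -0.77 and -0.96 in the Cy5 and 0.19 and 0.52 in the Cy3 orientation. In heart the list median was 0.49, with array medians from 0.13 to 0.61 and none of 13 genes past the test. It lay between -0.23 and 0.08 in lung, spleen, testis and brown adipose tissue.

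Among the alpha subunits, which form the outer rings of the barrel, the values spread widely. Psma5 had the lowest core ratio in 3 organs: -1.61 ± 0.87 in skeletal muscle, -2.36 ± 0.87 in heart and -1.08 ± 0.74 in brown adipose tissue. In heart it stood at -2.01, -1.78 and -2.82 on the 3 arrays that measured it, and its adjusted p was 1 without and 0.0932 with array weights. All its values in these 3 organs were below 0. In skeletal muscle Psma7 had the highest core ratio, 1.75 ± 0.79, from 0.38, 0.35 and 4.67. Psma2 was the highest in spleen (1.76 ± 0.70) and in testis (2.17 ± 0.70), where its 3 values were 2.85, 2.30 and 1.84. These testis values lay together and above 0 in both orientations, but did not pass (limma, adjusted p = 1, and 0.301 with array weights). The other extremes of the core were Psma6 (-1.35 ± 0.66) and Psmb7 in lung, Psmb2 (-1.47 ± 0.63) in spleen, Psmb3 (-1.18 ± 0.61) in testis, and Psmb9 in heart (0.57 ± 1.23) and brown adipose tissue.

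The regulatory particle was the class with the lowest median in skeletal muscle. Its median over 11 tested genes was -0.73, or -0.57 relative to the median of all rows. It was -0.50 in the Cy5 and -0.93 in the Cy3 orientation, so it was below 0 in both orientations, where all rows had -0.58 and 0.33. The class was thus lower than all rows in the Cy3 orientation and not in the Cy5 orientation. Relative to the median of each array the class stood at -0.28, 0.55, -1.05 and -1.43, above the array median on array 2. Of the 11 genes, 8 were below 0 in both orientations (72.7%, against 27.8% of all rows), 1 was above 0 in both, Psmd13, and 2 changed sign. The class median stayed below 0 under every alternative run, from -0.88 to -0.38. This is a description of 11 genes, of which 2 passed the test.

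The ATPases of the ring made up 5 of the 11. Psmc6 stood at -0.74, -0.27, -1.06 and -0.80 in skeletal muscle, a ratio of -0.72 ± 0.46, and was below 0 on every array. Psmc4 stood at -0.83, 0.03, -1.31 and -0.82, a ratio of -0.73 ± 0.28. Psmc5 was at -0.77 ± 0.68 and Psmc2 at -0.39 ± 0.39. Psmc3, by contrast, was at 0.03 ± 0.24. No ATPase passed, and the adjusted p-values by limma lay between 0.148 for Psmc4 and 0.969 for Psmc3.

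Of the non-ATPase genes in skeletal muscle, Psmd5 fell. It encodes a chaperone that holds part of the ATPase ring during assembly and is absent from the finished particle. Its values were -0.39, -0.91 and -1.60 on arrays 1 to 3, with none on array 4. The fitted ratio of -1.00 ± 0.29 is a level 2-fold lower in the mutant pool (limma, adjusted p = 0.0466, and 0.28 with array weights). Its 2 probes had means of -1.27 and -0.67 and were below 0 on all 3 arrays. The call was lost without skeletal muscle array 2 (adjusted p = 0.124) and without heart array 2 (0.0614), and centring brought the ratio to -0.61 (0.362). In the 5 other organs Psmd5 lay between -0.16 and 0.28 (SE 0.25 each).

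Several lid and base subunits beside Psmd13 were below 0 without passing. Psmd7, a lid subunit and partner of the deubiquitinase Psmd14, stood at -1.01, -1.31 and -0.97 in skeletal muscle. Its ratio of -1.10 ± 0.33 narrowly missed the threshold (limma, adjusted p = 0.0611, and 0.429 with array weights). Psmd4, a receptor for ubiquitin chains, stood at -2.78, -1.04 and -3.74, a ratio of -2.56 ± 0.87 (adjusted p = 0.109), the lowest of the class. Psmd6 was at -1.49 ± 0.66, from -1.14, 0.66, -0.77 and -4.73. Psmd11 spread from -2.65 to 2.48, a ratio of 0.25 ± 0.74. Psmd14 itself had 1 value in skeletal muscle, -1.80, and was not tested.

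Outside skeletal muscle the regulatory particle had medians of -0.11 in lung, 0.30 in spleen, -0.01 in testis, -0.03 in heart and -0.20 in brown adipose tissue, against -0.01, -0.07, 0.02, -0.02 and -0.07 for all rows. In brown adipose tissue 13 of 14 genes were below 0, as were 9305 of all 15223 rows. In both orientations 8 of the 14 were below 0 (57.1%, against 30.1% of all rows). The values there were small, with Psmd14 (-0.97 ± 0.53) and Psmd7 (0.42 ± 0.29) at the ends. In spleen Psmc6 was highest, at 4.15, 2.34 and -0.82 on 3 arrays and a ratio of 2.00 ± 0.54 (limma, adjusted p = 0.0669). Under 13 alternatives its ratio ran from 1.43 to 3.25, and it passed in 2 of them: with a dye term for each organ (2.46, adjusted p = 0.0232) and without the arrays of replicate number 4 in every organ (3.25, 0.00334). It did not pass with array weights (0.154), with arrays centred and scaled (0.487), without replicate number 3 (0.361) or with spleen fitted alone (0.905). With spleen fitted alone 0 of its 11217 rows passed. Psmc2 was the lowest there (-0.98 ± 0.39). The ends were Psmd4 (-1.96 ± 0.75) and Psmc5 (0.98 ± 0.79) in lung, Psmd4 (-0.84 ± 0.87) and Psmd2 (1.61 ± 0.64) in testis, and Psmd2 (-0.27 ± 0.64) and the assembly chaperone Psmd10 (0.96 ± 1.19) in heart. Psmd4 was thus the lowest of the class in lung, testis and skeletal muscle, though in testis it changed sign between arrays 3 and 4 of 1 orientation, from -2.31 to 2.11.

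**Figure D3:**
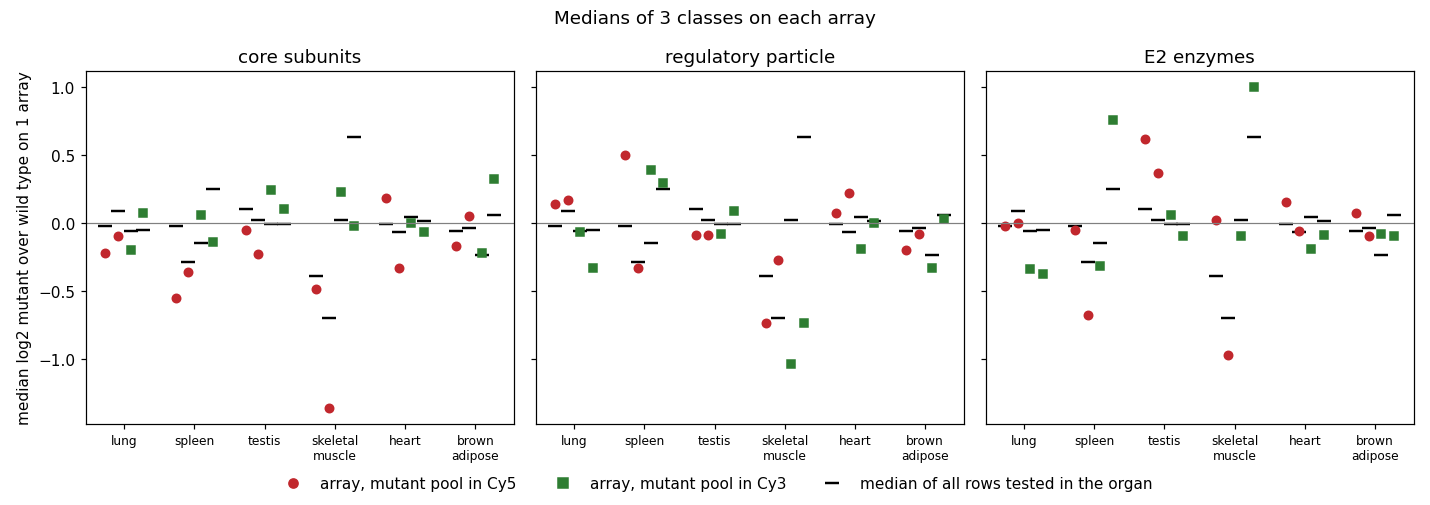
Median log2 ratio of the core subunits, the regulatory particle and the E2 enzymes on each array (red circles: mutant pool in Cy5, green squares: mutant pool in Cy3), with the median of all rows tested in the organ as a black bar. In skeletal muscle the 4 medians of the regulatory particle lie between -1.04 and -0.27, while those of all rows run from -0.70 to 0.63 and lie below the class on array 2.

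Among activators, inhibitors and assembly factors, Psme1 fell in skeletal muscle. Psme1 encodes the alpha subunit of the interferon-inducible cap. Its values were -1.23, -1.35, -1.03 and -1.11, the tightest of the genes that passed, with both dye orientations at the same level. These are uncentred values, on arrays whose medians over all rows were -0.46, -0.81, 0.01 and 0.69, and relative to those medians they were less alike. The ratio of -1.18 ± 0.34 is a level 2.27-fold lower in the mutant pool (limma, adjusted p = 0.0491, and 0.428 with array weights). The standard error comes from the spread in all organs, and Psme1 ran from -0.55 to 1.72 in brown adipose tissue. The call was lost when any 1 of the skeletal muscle arrays was left out (adjusted p from 0.0665 to 0.156), with centred arrays (-1.05, adjusted p = 0.0894) and without heart array 2 (0.0636).

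Psme2, the partner of Psme1 in that cap, was at 0.10, -0.45, -0.02 and -0.28 in skeletal muscle, a ratio of -0.16 ± 0.24. The 4 Psme1 values and the 4 Psme2 values did not overlap, but the difference between the genes was not tested. Elsewhere Psme1 was at -0.15 ± 0.34 in lung, -0.62 ± 0.39 in spleen, 0.12 ± 0.34 in heart and 0.38 ± 0.34 in brown adipose tissue, and had 2 values in testis. Psme2 was at -0.41 ± 0.24 in spleen, below 0 on all 4 arrays, and between -0.05 and 0.07 (SE 0.24 each) in lung, testis, heart and brown adipose tissue.

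The other genes of this class did not pass. The core assembly chaperone Psmg1 stood at 0.39, 1.04, 1.67 and 0.52 in skeletal muscle, a ratio of 0.90 ± 0.31 (limma, adjusted p = 0.0934), and at 0.34, -2.05, -1.25 and -1.05 in spleen, a ratio of -1.00 ± 0.31 (adjusted p = 0.107). It was above 0 on all 4 arrays of the first organ and below 0 on 3 of 4 of the second, and the F test between organs gave an adjusted p of 0.113. Psmg2, its partner, was at -0.19 ± 0.24 in skeletal muscle. The nuclear activator Psme3 had the highest ratio of the class in skeletal muscle, 1.74 ± 0.82, from 1.79, -2.05 and 4.28, and in heart, 0.55 ± 0.82. The inhibitor Psmf1 was highest in lung (0.48 ± 0.26) and spleen (0.40 ± 0.26) and was above 0 on 17 of 24 arrays. The remaining ends were Psme4, a nuclear activator, in testis (-0.11 ± 0.47), heart (-0.16 ± 0.47) and brown adipose tissue (-0.17 ± 0.47), and Psmg1 in testis (0.28 ± 0.31). The class medians lay between -0.06 and 0.01 in lung, testis, heart and brown adipose tissue, and were -0.39 in spleen and -0.16 in skeletal muscle.

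Among the 21 E2 enzymes, Ube2l3 rose in skeletal muscle. Ube2l3 encodes an E2 that hands ubiquitin to HECT and RBR ligases, parkin among them. Its values were 0.76, 3.18, 0.86 and 0.70, with array 2 far above the other 3. The fitted ratio was 1.37 ± 0.36, a level 2.59-fold higher (limma, adjusted p = 0.0274, and 0.218 with array weights). Without skeletal muscle array 2 the ratio was 0.78 and did not pass (adjusted p = 0.216). Leaving out any other skeletal muscle array kept the call (adjusted p from 0.0282 to 0.036), as did centring the arrays (0.0335). It was lost whenever a replicate number was left out of every organ (limma, adjusted p from 0.0825 to 0.23). With arrays centred and scaled it was lost too (0.337). In the other organs Ube2l3 lay between -0.16 and 0.20 (SE 0.36 each).

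Ube2l3 is reported by 4 probes, which did not all read alike. Probe 9162 stood at 0.57, 1.07, 1.25 and 0.62 in skeletal muscle, a mean of 0.88. Probe 18861 stood at 0.99, 1.62, 0.84 and 0.10, a mean of 0.89, and probe 18390 at 2.59, 6.85, 1.77 and 1.37, a mean of 3.15. These 3 probes were above 0 on all 4 arrays, in both orientations. Probe 2522 had 2 values, -1.13 and -0.40, and it was also the probe with the widest values elsewhere, from -3.42 to 4.03. With each probe tested on its own, Ube2l3 joined Psmd13 among the genes that differed between organs, against 4.3% of all rows.

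**Figure D4:**
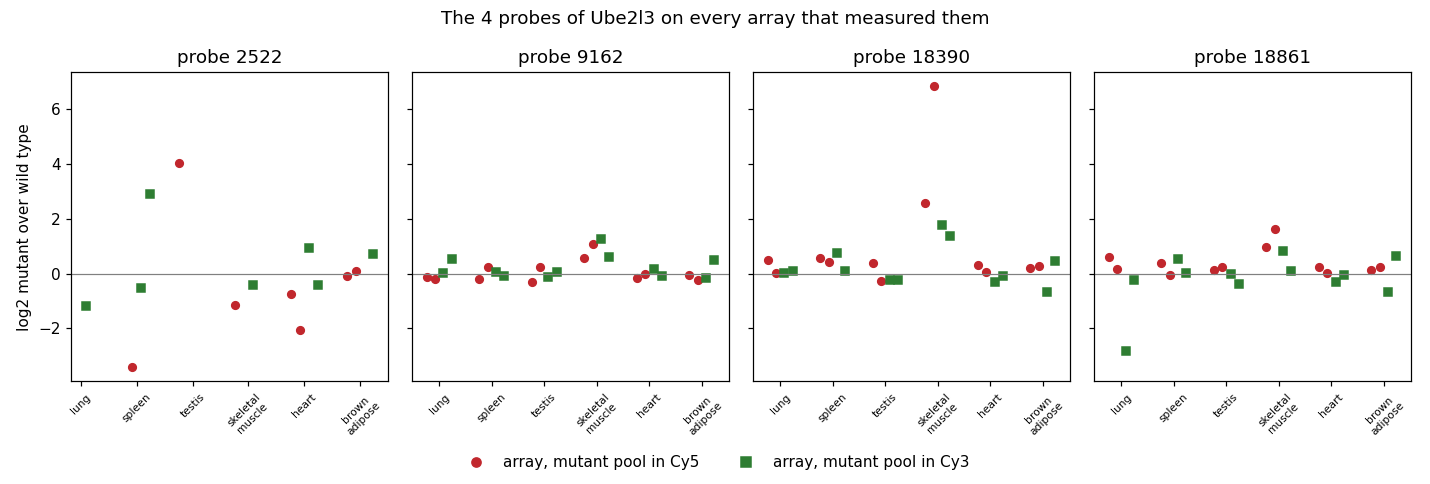
Log2 ratio of mutant over wild type of the 4 Ube2l3 probes on every array that measured them (red circles: mutant pool in Cy5, green squares: mutant pool in Cy3). Probes 9162, 18390 and 18861 are above 0 on all 4 skeletal muscle arrays, from 0.10 to 6.85, and probe 2522 has 2 values there, both below 0.

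No other E2 gene passed in any organ. In skeletal muscle Ube2k, which builds the ubiquitin chains read by the proteasome, stood at -1.29, -1.27, -0.86 and -0.13, a ratio of -0.89 ± 0.35 (limma, adjusted p = 0.153), and was below 0 on every array. Ube2r2, the E2 of cullin ligases, was at 0.91 ± 0.43. Ube2g2 (1.51 ± 0.63) and Ube2j1 (-1.25 ± 0.46), both E2 enzymes of endoplasmic reticulum degradation, were the ends of the class. Ube2g2 owed its place to array 2, at 4.79 against -0.51, 0.02 and 1.74 elsewhere. The median of the E2 enzymes was -0.17 in skeletal muscle, with -0.29 in the Cy5 and 0.28 in the Cy3 orientation, and its sign changed under 11 of 21 alternatives. Ube2b, the E2 of the N-end rule pathway in muscle, was at -0.56 ± 0.31 there.

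Ube2b was below 0 in all 6 organs and on 19 of 24 arrays. Its mean over the organs was -0.28 ± 0.12, the 1 gene of 32 with an unadjusted p under 0.05 in the test over organ means, where the share of all rows was 5.71%. After adjustment no gene of the set passed (limma, adjusted p = 0.702 for Ube2b), nor did any of the 7553 rows, a share of 0. The E2 medians were -0.13 in lung, 0.00 in spleen, 0.16 in testis, -0.03 in heart and -0.09 in brown adipose tissue. The ends were Ube2d1 (-1.86 ± 0.76) and Ube2a (1.39 ± 0.82) in lung, Ube2j2 (-1.00 ± 0.85) and Ube2n (0.50 ± 0.63) in spleen, and Ube2u (-0.44 ± 0.46) and Ube2f (2.24 ± 0.99) in testis. In heart they were Ube2w (-0.99 ± 0.57), below 0 on all 4 arrays, and Ube2d3 (0.90 ± 0.65), and in brown adipose tissue Ube2j2 (-0.84 ± 0.85) and Ube2ql1 (0.49 ± 0.91). Some of these ends split by dye: in lung Ube2d1 stood at -4.41 and -4.38 in the Cy5 orientation and 1.88 in the other, and Ube2a at 5.32 and 2.54 against -0.73 and -1.59.

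The pair named by letters only did not pass anywhere. Psmc3ip, a recombination factor of meiosis, was tested in 5 organs and spread from -3.88 to 2.83 in skeletal muscle (-0.46 ± 1.03). Psme3ip1, which binds the nuclear activator, was tested in all 6 and was at 0.29 ± 0.38 in skeletal muscle.

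Heart array 2, with its skeletal muscle label, moved several heart ratios. Without it 51 of the 54 genes could still be tested there, and Psma5, Psme3 and Ube2f could not. None of the 51 passed (limma, Benjamini-Hochberg adjustment), and 0 had an unadjusted p under 0.05. The sign turned for 8 genes. Psmd2 went from -0.27 to 0.50, so that its place as the low end of the regulatory particle rested on this array, where it stood at -2.07. Psmd4 went from 0.36 to -0.47 and Ube2l3 from -0.16 to 0.01. Psmb9, at -4.39 on this array, went from 0.57 to 1.67, and Psmd10 from 0.96 to 1.44. Psmd9 went from -0.02 to -0.64, Psmb11 from -0.62 to -1.04 and Psmc3ip from 0.72 to 1.13. Psmb8 (0.29), Psmb10 (from 0.17 to 0.09), Ube2w (-0.85) and Ube2d3 (0.91) moved by less than their standard errors. So did Psmb9, Psmd10 and Ube2l3. The heart medians became -0.06 for the core particle, -0.14 for the regulatory particle, -0.06 for the activators and assembly factors and 0.02 for the E2 enzymes.

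The dye orientation was also tested as a term of its own over the 32 genes measured in every organ. None passed, against 0.278% of all rows. The 3 smallest unadjusted p-values belonged to Psmb1 (dye term -0.62 ± 0.22, the Cy5 minus the Cy3 orientation), Psmb2 (-1.35 ± 0.47) and Psmc4 (0.47 ± 0.22), with adjusted p-values by limma of 0.194, 0.2 and 0.322. In skeletal muscle 21 of the 49 tested genes had opposite signs in the 2 orientations, as did 6352 of all 11974 rows. Of the 49, 20 were below 0 in both (40.8%, against 27.8% of all rows) and 8 were above 0 in both (16.3%, against 19.1%). In brown adipose tissue 20 of 59 were below 0 in both (33.9%, against 30.1%) and 13 above 0 in both (22%, against 15.2%).

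**Figure D5:**
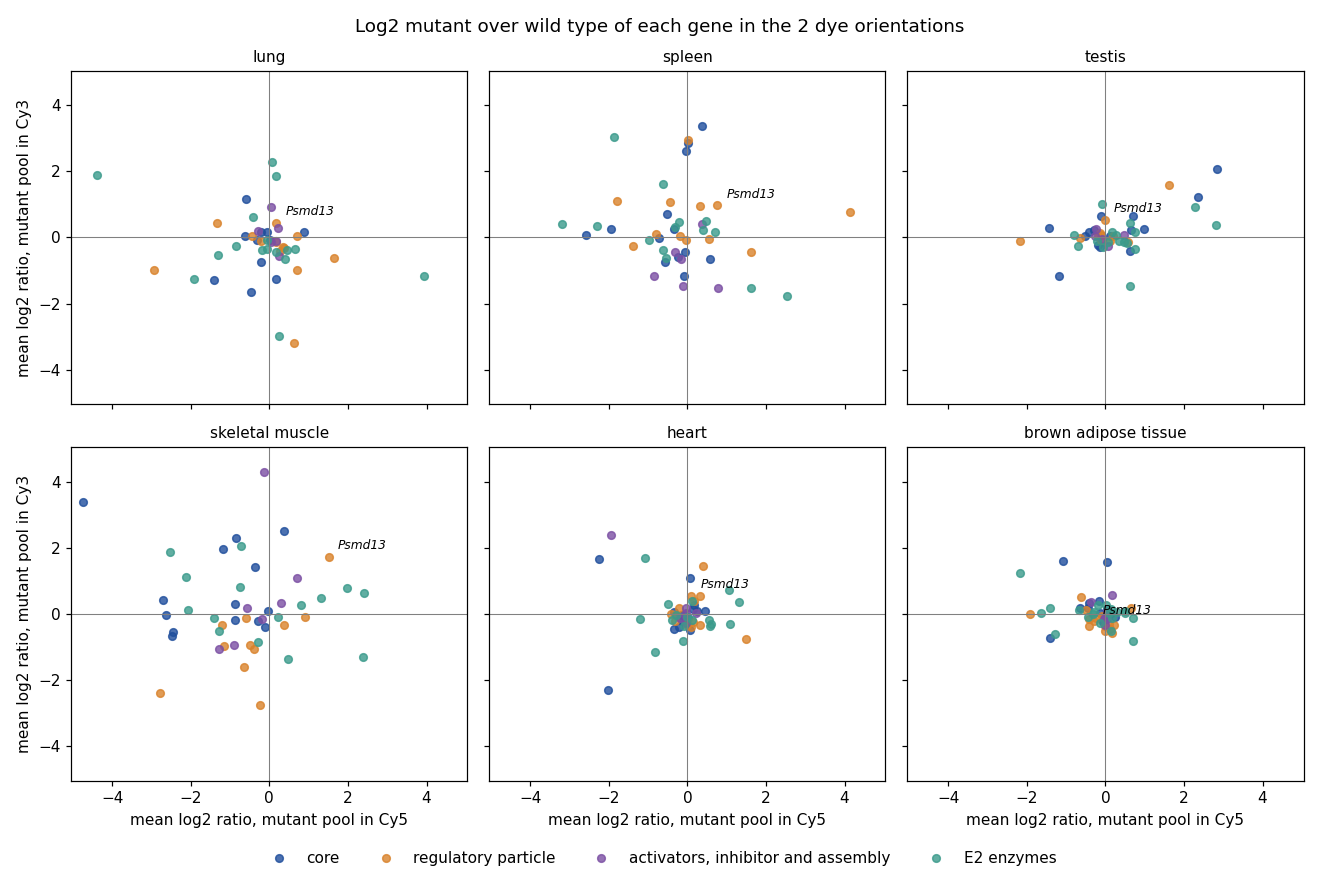
Mean log2 ratio of each tested gene in the Cy5 orientation of the mutant pool (horizontal) and the Cy3 orientation (vertical), by organ, coloured by class. Psmd13 lies in the upper right quadrant in skeletal muscle (1.51 and 1.72), and points cluster near 0 in heart and brown adipose tissue and spread widely in skeletal muscle and spleen.

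Other genes of the ubiquitin pathway were read from lists. In skeletal muscle 2 of 11 tested proteasome partners passed, against 5.58% of all rows. Sem1, a small subunit of the regulatory particle outside the Psm symbols, fell, with -2.73, -1.01, -0.82 and -1.38 on the arrays and a ratio of -1.48 ± 0.40 (limma, adjusted p = 0.0325, and 0.215 with array weights). Nploc4, a cofactor of the segregase Vcp, rose, with 0.88, 0.89, 1.31 and 0.38 and a ratio of 0.87 ± 0.21 (adjusted p = 0.0193, and 0.0626 with array weights). The median of the 11 was -0.30, against -0.16 for all rows. None of 3 E1 enzymes and partners, 32 E3 ligases or 31 deubiquitinating enzymes passed in skeletal muscle, where their medians were -0.04, -0.43 and -0.19.

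In spleen Nfe2l1, the transcription factor that restores proteasome genes when the proteasome is inhibited, fell. It stood at -1.30, -1.60, -1.57 and -0.99, a ratio of -1.37 ± 0.33 (limma, adjusted p = 0.0406, and 0.456 with array weights), the 1 gene of 6 tested factors to pass, against 1.53% of all rows in spleen (0.276% with array weights). Its ratio was 0.71 ± 0.33 in skeletal muscle and between -0.05 and 0.33 in the other organs. The E3 ligase Ube3a rose in spleen, 1 of 30 tested ligases against the same 1.53%, with 2.98, 3.20, 0.23 and 3.64 and a ratio of 2.51 ± 0.55 (adjusted p = 0.0414, and 0.268 with array weights). No gene of these lists passed in lung, testis, heart or brown adipose tissue.

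Markers of other cell types were read on the same arrays, since each pool is whole tissue in which fewer cells of a type and less RNA per cell cannot be told apart. The shares of all rows past the test, against which the marker counts stand, were 5.58% in skeletal muscle, 1.53% in spleen and 0.0809% in lung. In skeletal muscle 2 of 16 skeletal muscle markers rose (Neb and Ryr1), with a list median of 0.18 and array medians from -0.41 to 0.53. In the same organ 1 of 4 T cell markers fell (Ccr7), 1 of 5 red cell markers rose (Slc4a1), 1 of 5 adipocyte markers rose (Cidea), and no B cell, macrophage, germ cell or pancreas marker passed. In spleen 10 of 12 exocrine pancreas markers fell, with a list median of -4.07 and array medians from -5.08 to -4.35, 1 of 11 skeletal muscle markers fell (Tnni2) and 1 of 6 adipocyte markers rose (Cidea). In lung 3 of 15 skeletal muscle markers fell, with a list median of -1.36 and array medians from -1.65 to -1.27. In brown adipose tissue the skeletal muscle list had a median of 0.52 with none of 16 past the test. The part of these markers in the values of the proteasome and E2 genes was not tested.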

How the data were processed

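The genes, lists and tests were chosen with earlier results of these data known. The authors deposited 1 log2 ratio per probe and array. The sources used here do not give its base, centring, direction, normalization or software, and the log2 reading is an assumption. Indirect labelling started from 20 µg of total RNA, per the labels' protocols. Values of size above 12 (4874 of 392774, and 13 of 1655 on these genes) were treated as missing, since they lie apart from the rest. Probes sharing a single symbol were averaged, which gave 16148 rows, and all 84 probes of the set kept their symbol in the RefSeq table (GRCm38.p6).

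Limma 3.58.1 in R 4.3.3 fitted 6 organ coefficients and 1 dye term over the 24 arrays, with Benjamini-Hochberg adjustment over all rows tested and a threshold of 0.05. A coefficient's standard error uses the spread over all organs. The test over organs used the 6 organ means. Alternatives changed array weights, centring, scaling, the dye term, filters and the arrays included. The procedure was tested on simulated data. The number of arrays limits the precision.

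Genes named with values are those past a test, the highest and lowest of each class in each organ, the catalytic and immunoproteasome subunits with Psme1 and Psme2, and pathway genes past the test. Others that are named (such as Psmd7, Psmg1, Ube2k and the remaining regulatory particle genes in skeletal muscle) were chosen after their values were seen.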

Additional observations from a re-analysis of the deposited data

Results flagged for a closer look

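In 21 of 232 sets of 4 arrays (9.05%) 1 array stood apart from the other 3 by Dixon's test, where chance gives about 1 in 20. In skeletal muscle these were Psma4 on array 4 (2.71, others from -0.40 to 0.11), Psmb5 on array 1 (-4.78, others from -0.59 to -0.14) and Ube2l3 on array 2 (3.18, others from 0.70 to 0.86). In spleen they were Psmb5 (-0.85) and Psme4 (-3.56) on array 4, Psmd11 on array 2 (-1.77) and Ube2z on array 1 (-0.99). In lung they were Psmb4 on array 4 (0.83), Psmb7 on array 2 (1.51) and Psmc3ip on array 3 (-4.98). In testis they were Psmc4 (1.14) and Psmg1 (0.92) on array 2, Ube2k on array 3 (0.29) and Ube2n on array 4 (-0.53). In heart they were Psmb6 (0.01) and Psmb8 (0.85) on array 1, Ube2o (-1.38) and Ube2u (-2.07) on array 2 and Ube2a on array 3 (0.81). In brown adipose tissue they were Psmc3ip on array 1 (-1.29) and Ube2k on array 4 (0.71). Of 24 class medians 3 stood apart in the same way: the regulatory particle on testis array 4 (0.09), the activators and assembly factors on brown adipose tissue array 3 (-0.29) and the E2 enzymes on brown adipose tissue array 1 (0.07).

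Psmd13 differed between organs (limma's F test, adjusted p = 0.00838). Psmb7 was above 0 on all 4 lung arrays (0.53) and below 0 on all 4 skeletal muscle arrays (-1.57). Ube2k was above 0 on all 4 testis arrays (0.53) and below 0 on all 4 arrays of spleen (-0.50) and of skeletal muscle (-0.89). The differences between these pairs of organs were not tested. Over the 6 organs the F test gave adjusted p-values of 0.469 for Psmb7 and 0.327 for Ube2k.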

How the results depend on the processing

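In brackets after each count below is the share of all rows that passed in the same setting. Under the alternatives the 4 genes past the test in skeletal muscle (5.58%) became 1 with array weights (1.64%) and 2 with centred arrays (4.61%). They became 0 with arrays centred and scaled (0.418%) and 0 with the organ fitted alone (0%). The count was 2 without heart replicate 2 (4.89%), and from 1 to 2 when a replicate number was left out of every organ (1.97% to 3.21%). Settings added after seeing the data gave 2 with array weights by REML on complete rows, Psmb5 and Psmd13 (1.31%), and 2 with skeletal muscle arrays 1 and 3 only (2.68%). They gave 4 without skeletal muscle replicate 1 (3.97%), of which 3 were among the 4 genes of the main fit. They gave 2 without replicate 2 (4.04%, 1 in the main fit), 3 without replicate 3 (6.68%, 2 in the main fit) and 3 without replicate 4 (5.08%, all 3 in the main fit). With skeletal muscle arrays 1 and 3 only, and without replicate number 2 in every organ, 1 of the 2 was in the main fit. Psme1 did not pass when any skeletal muscle array was left out. Psmd13 passed under all settings of this paragraph except 2, arrays centred and scaled (1.03) and the organ fitted alone (1.61, limma, adjusted p = 0.59). In spleen the count of 0 (1.53%) became 1 with a dye term per organ, Psmc6 (1.83%), and 1 with each probe apart, Psmb4 (2.35%). The probes of Psmb4 differed in sign in spleen, with means of -1.64 and 0.44. The spleen count was from 0 to 2 when a replicate number was left out (0.44% to 1.39%). The count between organs, 1 (2.24%), became 0 with centred arrays (1.43%), 0 with arrays centred and scaled (0.344%) and 2 with each probe apart (4.3%). It was from 0 to 2 when a replicate number was left out (0.583% to 1.59%). No call reversed.

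Between arrays of different organs, deviations from the organ means correlated at a median r of 0.0437 with the same replicate number. With another number of the same dye the median r was 0.0457. Arrays of the same number were thus no more alike, but this cannot show whether they shared a batch. With the replicate block 2 genes passed in skeletal muscle, Psmd13 and Ube2l3, against 4.78% of all rows. The tests over organs were not run with that block, nor the dye term without a dye term.

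Of 306 ratios of a gene in an organ, 162 kept their sign under every alternative, and 77 of the 91 larger than 0.5 in size did. Of 20 class medians outside skeletal muscle 8 kept their sign under every alternative run, and of 4 in skeletal muscle 2 did, the core and the regulatory particle. The 4 arrays per organ, and the pools behind them, limit every statement above.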
